A study of Homo sapiens with 9 samples.

Results

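Mucins are the large, heavily O-glycosylated proteins that coat and lubricate the gut surface, and 10 mucin genes (MUC1, MUC2, MUC4, MUC5AC, MUC5B, MUC6, MUC12, MUC13, MUC17 and MUC20) were followed here in HT29 cells, an established human colon cancer line. They were taken by gene symbol: a probe set, the group of short probes that reports 1 transcript region on the array, was kept where the platform annotation gave it exactly 1 of these symbols. This left 28 of the 54613 probe sets tested, for 10 of the 19775 genes that had a probe set of their own. The cells had received instant caffeinated coffee (ICC) at 7 µg/mL for 24 h, caffeic acid (CA), a coffee polyphenol, at 1.68 µg/mL for 24 h, or no treatment (Control). Each group had 3 Affymetrix HG-U133 Plus 2.0 arrays, numbered replicate 1 to 3, of total RNA from whole cell populations. The design text gives both concentrations as non-cytotoxic. The labels do not state whether the 3 arrays of a group stand for separate cultures; the spread behind every p-value is that between arrays and may be technical. All groups are the same cancer line, and no culture time is given for the Control cells.

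Mucins fall into 2 classes with different roles. Gel-forming mucins (MUC2, MUC5AC, MUC5B and MUC6) are secreted by goblet and gland cells, link end to end through cysteine-rich domains and swell into the mucus layer, of which MUC2 is the main component in the colon. Membrane-bound mucins (MUC1, MUC4, MUC12, MUC13, MUC17 and MUC20) stay anchored in the apical membrane, form the glycocalyx and signal through their tails or through receptor tyrosine kinases beside them. MUC2, MUC5AC, MUC5B and MUC6 lie next to each other in 1 cluster on chromosome 11, with a single other protein-coding entry between MUC6 and MUC2 in RefSeq, while MUC4 and MUC20 are neighbours on chromosome 3 and MUC12 and MUC17 on chromosome 7.

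RefSeq start-site windows (GRCh38.p14, 250 bases before and 50 bases from each start) were matched for 6 of the 10 genes, in 7 windows (MUC1, MUC2, MUC4, MUC12, MUC13 and MUC17, and not MUC5AC, MUC5B, MUC6 and MUC20). Those of MUC13, MUC1 and MUC2 are shown because these are a bright membrane-bound mucin, the mucin with the lowest unadjusted p between ICC and CA among leading probe sets, and the main gel-forming mucin of the colon. They lie at chr3:124934702-124935001 (minus strand), chr1:155192866-155193165 (minus strand) and chr11:1074624-1074923 (plus strand), are written 5′ to 3′ in the direction of transcription, and carry motif matches in capitals.
MUC13: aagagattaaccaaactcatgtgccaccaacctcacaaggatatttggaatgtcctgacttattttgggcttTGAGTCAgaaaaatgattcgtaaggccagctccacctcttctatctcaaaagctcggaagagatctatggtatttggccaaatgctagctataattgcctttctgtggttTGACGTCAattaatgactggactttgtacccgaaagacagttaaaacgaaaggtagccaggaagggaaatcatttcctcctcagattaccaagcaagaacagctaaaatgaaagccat
MUC1: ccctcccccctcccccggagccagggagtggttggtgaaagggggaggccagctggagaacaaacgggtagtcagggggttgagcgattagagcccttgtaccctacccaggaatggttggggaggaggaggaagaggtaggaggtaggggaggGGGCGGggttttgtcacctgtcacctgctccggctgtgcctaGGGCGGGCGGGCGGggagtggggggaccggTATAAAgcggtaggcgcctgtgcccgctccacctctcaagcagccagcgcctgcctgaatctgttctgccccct
MUC2: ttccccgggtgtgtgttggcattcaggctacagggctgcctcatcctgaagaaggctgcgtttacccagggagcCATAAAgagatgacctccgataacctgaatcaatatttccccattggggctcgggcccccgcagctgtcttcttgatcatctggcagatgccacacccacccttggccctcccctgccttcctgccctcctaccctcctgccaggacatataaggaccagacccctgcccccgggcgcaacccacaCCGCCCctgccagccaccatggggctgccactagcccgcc

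The capitals in MUC13 are an AP-1 match (TGACTCA, here read on the other strand) at -178 to -172 and a cAMP response element match (TGACGTCA) at -68 to -61 from the start site. In MUC1 they are a GC box match (GGGCGG) at -96 to -91, 3 overlapping GC box matches between -54 and -41, and a TATA box match (TATAAA) at -24 to -19. In MUC2 they are a match to the caudal (CDX) site TTTATG on the other strand at -176 to -171 and a GC box match on the other strand at 11 to 16. MUC1 has a second window, not shown, from a nearby start site. There the same matches have other positions, with the TATA box at -30 to -25. Each motif was searched on both strands of 35116 windows of the same length. The share of all windows with a match was 4.95% for AP-1, 1.85% for the cAMP response element, 45% for the GC box, 11.5% for the TATA box and 10.6% for TTTATG. AP-1 letters also occurred in MUC17, the GC box in MUC4 and the TATA box in MUC12. The core of the antioxidant response element (TGACNNNGC) occurred in 13.3% of all windows and in 0 of the 7 mucin windows, which says only that these letters are not in these windows. The motifs were chosen with these sequences in view, and a match is not a measured binding site.

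Values are log2 of the deposited intensities, and differences are differences of log2 means, so 1 unit is a doubling. Array medians lay between 43.8 and 46.6 intensity units and any pair of arrays correlated at 0.993 to 0.998. Of the 10 colon epithelial markers, 9 lay above the median of all probe sets (5.49) and 7 above the upper quartile (7.61), with CDH17, an intestinal cadherin, below the lower quartile (4.15) at 4.14. Absorptive enterocyte markers ran from the brush border enzyme SI at 3.20 to DPP4 at 8.05, with FABP2 at 3.87 and SLC5A1 at 7.53. They were above the median for 5 of 15 genes, and enteroendocrine markers for 1 of 8. Paneth and gastric markers were above it for 6 of 11, a list that itself holds MUC5AC and MUC6. Non-epithelial markers were above it for 7 of 10 and above the upper quartile for 0. They ran from PTPRC, the leukocyte antigen CD45, at 3.65 to COL1A1 at 7.24, with CD14 at 7.14. Their summed intensity ranged over 610 to 738 in ICC, 605 to 611 in CA and 593 to 664 in Control arrays, and the Paneth and gastric sum over 10700 to 12600 in ICC, 10400 to 12000 in CA and 12500 to 12700 in Control arrays. The colon epithelial sum ranged over 53100 to 56600 in ICC, 53100 to 55600 in CA and 53800 to 57200 in Control arrays. The enterocyte sum ranged over 861 to 912 in ICC, 815 to 887 in CA and 885 to 913 in Control arrays, and the enteroendocrine sum over 151 to 169 in ICC, 151 to 162 in CA and 154 to 163 in Control arrays. All sums are of linear intensities, so the brightest genes weigh most. These were LYZ (log2 mean 13.05) and PRSS2 (11.53) among Paneth and gastric markers and KRT18 (14.38) among colon epithelial markers. CA minus Control was -0.10 for LYZ and -0.24 for PRSS2 (limma, adjusted p 0.995 and 0.986). The part of these cell types in the mucin values was not tested. In whole populations, fewer cells making a mucin and less of its RNA per cell cannot be told apart.

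MUC13 and MUC20, both membrane-bound, gave the mucin signals that lay highest within the arrays. Of the 28 mucin probe sets, 4 lay above the upper quartile (2 each of MUC13 and MUC20), 8 between the median and the upper quartile, 13 between the lower quartile and the median, and 3 below the lower quartile. For 6 of the 10 genes the leading probe set, the one with the highest mean over the 9 arrays, lay above the median, namely MUC1, MUC13, MUC20, MUC2, MUC5AC and MUC6. Leading probe sets of MUC4, MUC12, MUC17 and MUC5B lay between the lower quartile and the median. Probe sets differ in how strongly they bind, so their positions are not a ranking of transcript amounts. The median is also not a detection level, since 7 of 10 non-epithelial markers lay above it. Those markers ran from 3.65 to 7.24, a range that holds the leading means of every mucin except MUC13 and MUC20. Whether the mucins in that range exceed background was not tested. The plot of the 10 leading probe sets gives each gene a panel of the same height, in which MUC4 has the narrowest range over the 9 arrays (0.19) and MUC5AC the widest (1.26).

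**Figure D1:**
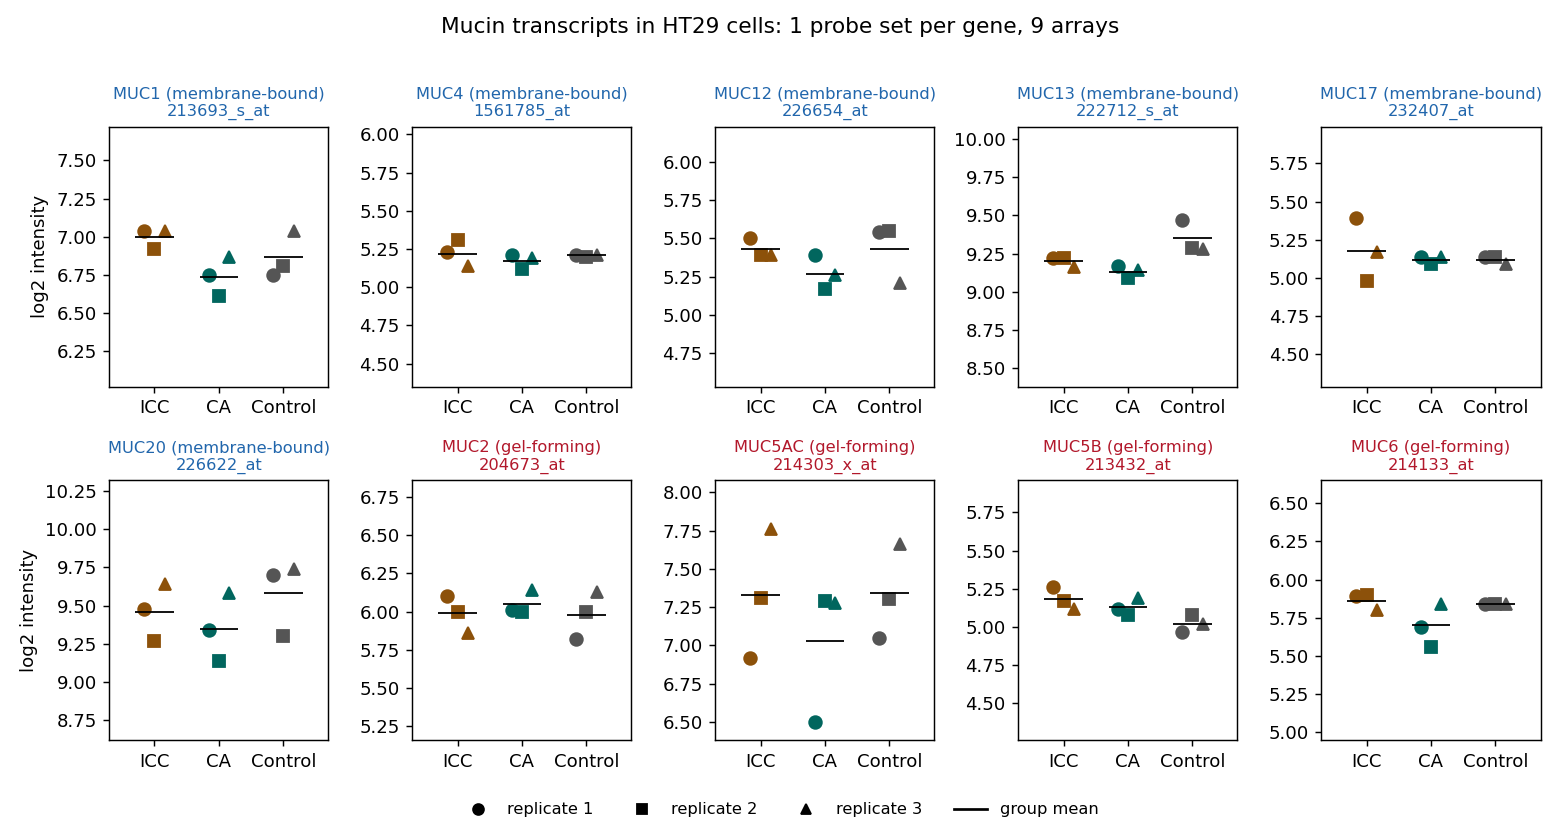
Log2 intensity of the leading probe set of each of the 10 mucin genes, 1 point per array for ICC, CA and Control (3 arrays each). Bars are group means, marker shapes are replicate numbers and all panels have the same height on the log2 axis. MUC20 and MUC13 lie between 9.09 and 9.74 on every array, and MUC5AC spans 1.26 log2 units, the widest range of the 10.

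No mucin passed the test in any comparison. In limma's test on all 54613 probe sets with Benjamini-Hochberg adjustment, 0 of 28 mucin probe sets and 0% of all probe sets reached an adjusted p under 0.05 for ICC against Control, for CA against Control or for ICC against CA. Control arrays are shared by the first 2 comparisons, and ICC and CA arrays by the first and second with the third, so the comparisons are not independent. For ICC against Control, 1 of 28 mucin probe sets (3.57%) had an unadjusted p under 0.05, against 8.23% of all probe sets. For CA against Control it was 4 of 28 (14.3%), against 4.68% of all, and for ICC against CA 1 of 28 (3.57%), against 2.65% of all. By leading probe sets, 1 of the 10 mucin genes had an unadjusted p under 0.05 in each comparison (MUC5B, MUC13 and MUC1 in that order), against 7.52%, 4.38% and 2.59% of all genes. The 4 probe sets of the CA comparison include both of MUC13, so they are not 4 separate genes.

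Same-numbered arrays of different groups resembled each other, and a fit with the replicate number as a block gave other counts. With the block, 2 probe sets of all (0.00366%) passed for ICC against Control, neither of them a mucin, and 0% passed for CA against Control and for ICC against CA. At an unadjusted p under 0.05, 1 of 28 mucin probe sets (3.57%) was counted for ICC against Control, against 12.8% of all. For CA against Control 8 of 28 (28.6%) were counted, against 8.22% of all, and they belong to MUC13, MUC20, MUC5AC and MUC5B. Among them MUC5AC 217182_at was higher in CA (0.33) but MUC5AC 214303_x_at and 214385_s_at lower (-0.31 and -0.30). For ICC against CA 7 of 28 (25%) were counted, against 5.51% of all, and they belong to MUC1, MUC20, MUC5AC and MUC5B. In both of these counts several probe sets are of the same gene. Some of those vary together (r = 0.96 between MUC5AC 214303_x_at and 214385_s_at), so neither count is one of separate genes. Among mucins the lowest adjusted p with the block was 0.238, 0.475 and 0.882 in the 3 comparisons.

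Where the 3 arrays of each group do not overlap, the count needs no model. For ICC against Control, ICC lay wholly higher for 4 of 28 probe sets, against 7.08% of all, and wholly lower for 1, against 4.75% of all. For CA against Control, CA lay wholly higher for 3, against 3.79% of all, and wholly lower for 3, against 4.06% of all. For ICC against CA, ICC lay wholly higher for 2, against 3.78% of all, and wholly lower for 1, against 2.11% of all. In percent of the 28 these counts are 14.3, 3.57, 10.7, 10.7, 7.14 and 3.57. An exact permutation test of 3 arrays against 3 cannot go below p = 0.1, so non-overlap alone cannot pass. The plot of all differences shows intervals that mostly cross 0.

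**Figure D2:**
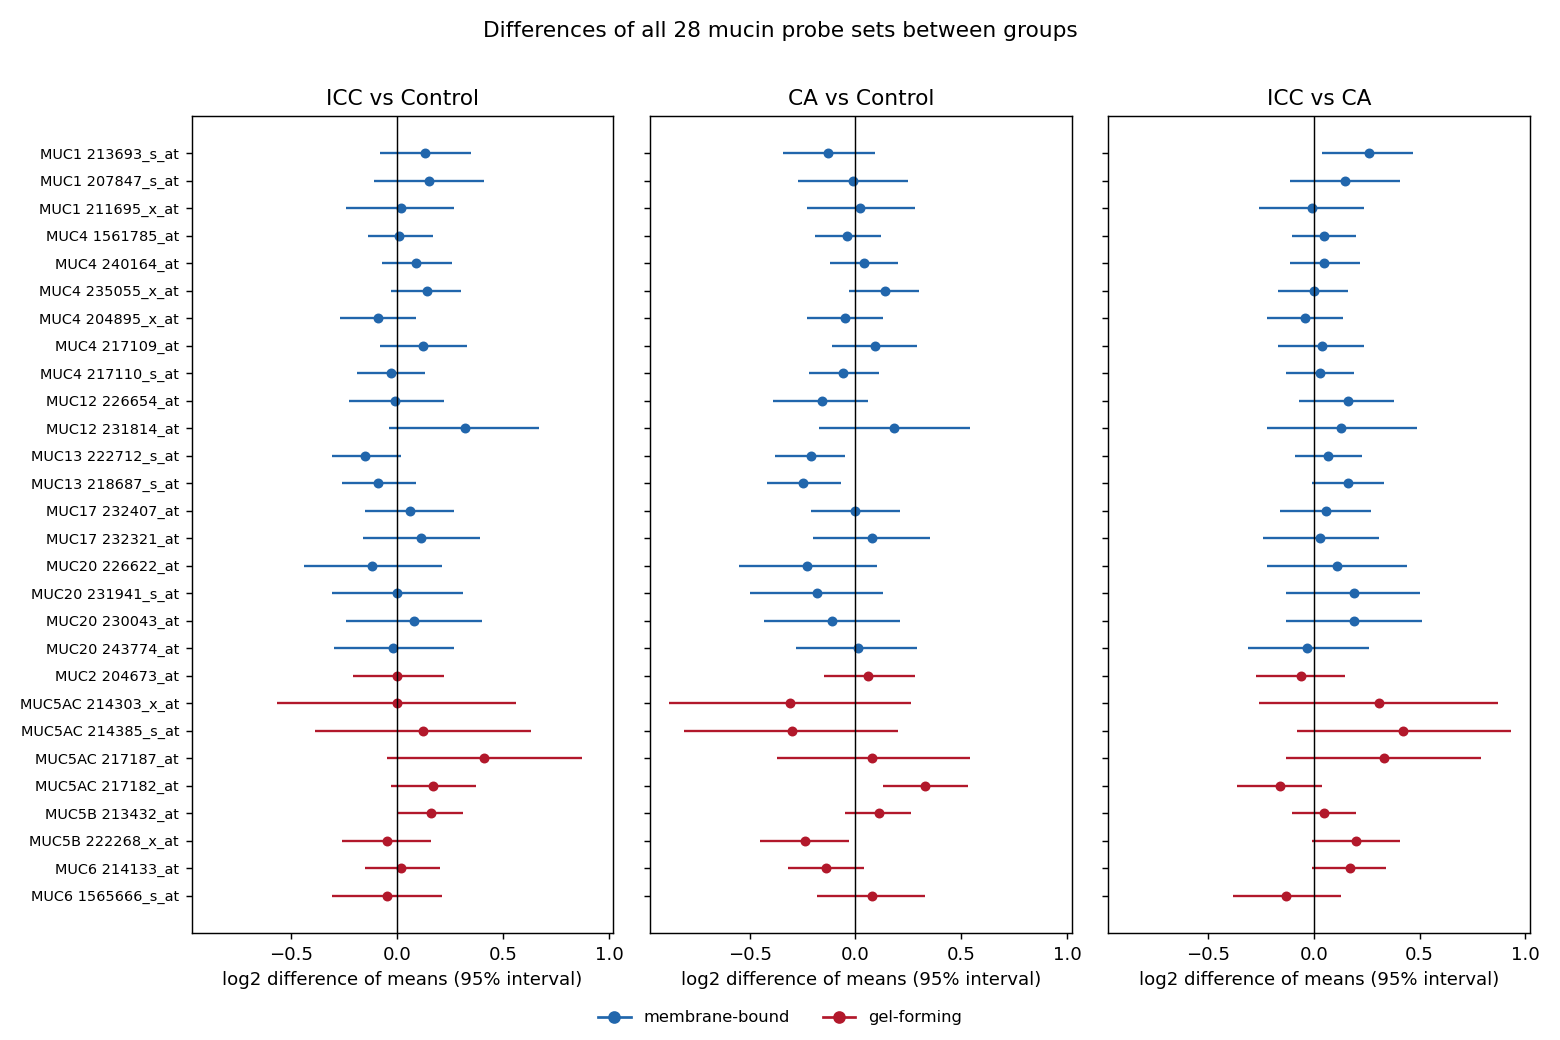
Log2 differences of all 28 mucin probe sets with 95% intervals from limma, for ICC minus Control, CA minus Control and ICC minus CA, with membrane-bound mucins in blue and gel-forming in red. Both MUC13 intervals lie below 0 for CA minus Control, and the widest intervals are those of MUC5AC.

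The 19 membrane-bound probe sets had a median difference of 0.02 for ICC minus Control (12 above 0), -0.04 for CA minus Control (8 above 0) and 0.06 for ICC minus CA (15 above 0). The 9 gel-forming probe sets had medians of 0.02 (6 above 0), 0.06 (5 above 0) and 0.17 (6 above 0). Over all probe sets the medians were 0.01, 0.00 and 0.02, with 54.9%, 48.0% and 57.7% above 0. Individual mucin differences ran between -0.31 and 0.42. The gel-forming median for CA minus Control turned to -0.04 with 1 leading probe set per gene, and to -0.02 without CA replicate 3 or without Control replicate 1, so its direction is not settled. For ICC minus Control it was -0.04 without Control replicate 1. Names ending in _x_at or _s_at (13 of 28) mark probe sets that can match more than 1 transcript, of the same or another gene. Without them the gel-forming median was 0.16 for ICC minus Control and 0.05 for ICC minus CA.

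MUC13, a transmembrane mucin abundant on colon epithelium, had lower values in CA arrays than in Control arrays on both of its probe sets. Its leading probe set 222712_s_at had 9.22, 9.22 and 9.16 in ICC, 9.17, 9.09 and 9.14 in CA, and 9.47, 9.29 and 9.28 in Control arrays. All 3 CA arrays and all 3 ICC arrays lay below all 3 Control arrays. CA minus Control was -0.21 ± 0.0727 (SE; a 1.16-fold lower mean in CA, 95% interval -0.38 to -0.05, unadjusted p 0.0141, adjusted p 0.986). The second probe set, 218687_s_at, had 8.47, 8.48 and 8.57 in ICC, 8.29, 8.36 and 8.39 in CA, and 8.72, 8.47 and 8.59 in Control arrays. CA lay wholly below Control and wholly below ICC, while ICC and Control overlapped. Its CA minus Control difference was -0.25 ± 0.0784 (1.19-fold lower in CA, interval -0.42 to -0.07, adjusted p 0.986, with the block 0.517). For ICC minus Control the probe sets gave -0.15 (interval -0.31 to 0.02) and -0.09 (interval -0.26 to 0.09), and for ICC minus CA 0.07 and 0.16. Without Control replicate 1, ICC minus Control was -0.09 and -0.02, and CA minus Control -0.15 and -0.18. Both probe sets correlated at 0.79 over the 9 arrays. No MUC13 difference passed the test.

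MUC20, a membrane mucin known to bind the hepatocyte growth factor receptor MET, varied with the replicate number more than with treatment. Its leading probe set 226622_at had 9.48, 9.27 and 9.64 in ICC, 9.34, 9.14 and 9.58 in CA, and 9.70, 9.30 and 9.74 in Control arrays. Replicate 2 was the lowest array and replicate 3 the highest in all 3 groups, and the groups overlapped. CA lay below Control in 3 of 3 same-numbered pairs, with differences of -0.36, -0.16 and -0.16. The mean CA minus Control was -0.23 with an SE of 0.147 without the block and 0.0729 with it (interval with the block -0.39 to -0.06, adjusted p 0.986 without it and 0.517 with it). With 1 array left out and no block, which also unbalances the replicate numbers, it ran between -0.37 (without Control replicate 2) and -0.12 (without CA replicate 2). The probe set 231941_s_at had 9.13, 8.81 and 9.18 in ICC, 8.84, 8.71 and 9.01 in CA, and 9.17, 8.75 and 9.19 in Control arrays, again with replicate 2 lowest in each group. Its differences were 0.00 for ICC minus Control, -0.18 for CA minus Control and 0.19 for ICC minus CA. The dimmer 230043_at and 243774_at ranged over 6.46 to 7.03 and 5.50 to 6.06, with CA minus Control at -0.11 and 0.01.

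MUC1, a signalling mucin of most epithelia, had 7.04, 6.92 and 7.04 in ICC, 6.75, 6.61 and 6.87 in CA, and 6.75, 6.81 and 7.04 in Control arrays on its leading probe set 213693_s_at. ICC lay wholly above CA, and Control spanned much of both. ICC minus CA was 0.26 ± 0.0967 (1.20-fold, interval 0.04 to 0.47, unadjusted p 0.0229, adjusted p 1.00, with the block 0.882), with ICC higher in 3 of 3 pairs. ICC minus Control was 0.13 (interval -0.08 to 0.35) and CA minus Control -0.13 (interval -0.34 to 0.09). The probe set 207847_s_at, with r = 0.66 to the leading one over the 9 arrays, gave 0.15 for ICC minus CA (interval -0.11 to 0.41). The third, 211695_x_at, with r = -0.23, gave -0.01 (interval -0.26 to 0.24) and so did not follow it. These probe sets ranged over 5.01 to 5.56 and 5.03 to 5.56.

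The remaining membrane-bound mucins had leading probe sets between the lower quartile and the median. MUC12, a large intestinal mucin, had 5.50, 5.39 and 5.39 in ICC, 5.39, 5.17 and 5.26 in CA, and 5.54, 5.55 and 5.21 in Control arrays (226654_at), with all groups overlapping and CA minus Control at -0.16 (interval -0.39 to 0.06). Its dimmer probe set 231814_at gave 4.51, 4.34 and 4.38 in ICC, 4.04, 4.21 and 4.57 in CA, and 4.30, 4.23 and 3.74 in Control arrays, with ICC wholly above Control by a mean of 0.32 (interval -0.04 to 0.67). Control replicate 3 lay apart at the low end, and the difference was 0.14 without it and 0.42 without Control replicate 1. MUC17, a brush border mucin of the small intestine, had 5.39, 4.98 and 5.17 in ICC, 5.14, 5.09 and 5.14 in CA, and 5.14, 5.14 and 5.09 in Control arrays (232407_at). Its groups overlapped, and the difference was 0.06 for ICC minus Control (interval -0.15 to 0.27) and 0.00 for CA minus Control (interval -0.21 to 0.21). Its other probe set, 232321_at, ranged over 4.09 to 4.53 and overlapped between groups.

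MUC4, a mucin that binds the receptor ERBB2, had 5.23, 5.31 and 5.14 in ICC, 5.21, 5.12 and 5.19 in CA, and 5.21, 5.20 and 5.21 in Control arrays (1561785_at). These values differed by less than the spread between replicates, with an ICC minus Control of 0.01 (interval -0.14 to 0.17). Of its other 5 probe sets, 235055_x_at lay wholly above Control in both treatments by means of 0.14, though the lowest ICC and CA values (4.91 each) and the highest Control value (4.90) nearly touched. The other 4 ranged over 3.35 to 5.11 and overlapped between groups in each comparison.

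MUC5AC, the gel-forming mucin of stomach surface and airway goblet cells, varied most between arrays. Its leading probe set 214303_x_at had 6.92, 7.31 and 7.76 in ICC, 6.50, 7.29 and 7.28 in CA, and 7.05, 7.30 and 7.66 in Control arrays. Replicate 1 was the lowest array in each group, and the groups overlapped. The probe set 214385_s_at had 6.96, 7.31 and 7.68 in ICC, 6.48, 7.16 and 7.04 in CA, and 6.81, 7.29 and 7.49 in Control arrays, and 217187_at had 6.65, 7.13 and 7.61 in ICC, 6.53, 6.95 and 6.93 in CA, and 6.57, 6.78 and 6.80 in Control arrays. On all 3 probe sets replicate 1 was lowest in every group, ICC replicate 3 was the highest array, and ICC exceeded CA in 3 of 3 pairs. ICC minus CA was 0.31, 0.42 and 0.33 with 95% intervals of -0.26 to 0.87, -0.08 to 0.93 and -0.13 to 0.79 without the block, and 0.08 to 0.54, 0.22 to 0.63 and 0.06 to 0.60 with it. The adjusted p was 1.00 for each without the block and 0.882 with it. With 1 array left out, ICC minus CA on 214303_x_at ran between 0.04 (without CA replicate 1) and 0.51 (without ICC replicate 1). On 214385_s_at it ran between 0.22 and 0.60 without the same arrays, and on 217187_at between 0.09 (without ICC replicate 3) and 0.57 (without ICC replicate 1). These fits held no block, and replicate 1 was lowest in every group, so leaving out 1 array also unbalances the replicate numbers. The same-numbered ICC minus CA pairs were 0.42, 0.02 and 0.48 on 214303_x_at and 0.48, 0.15 and 0.65 on 214385_s_at. On 217187_at they were 0.12, 0.19 and 0.68, so the sizes differed between pairs on each probe set.

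Against Control the MUC5AC probe sets disagreed. CA minus Control was -0.31 and -0.30 on 214303_x_at and 214385_s_at but 0.08 on 217187_at, and ICC minus Control was 0.00, 0.12 and 0.41 in the same order. The last of these had an adjusted p of 0.633, or 0.238 with the block, and pairs of 0.07, 0.35 and 0.81, and was 0.17 without ICC replicate 3. On 214385_s_at ICC minus Control was -0.07 without Control replicate 1, so its direction is not settled. The CA minus Control values of 214303_x_at and 214385_s_at were -0.05 and -0.10 without CA replicate 1, also without the block. The fourth probe set, 217182_at, had 5.44, 5.43 and 5.38 in ICC, 5.60, 5.48 and 5.64 in CA, and 5.06, 5.34 and 5.35 in Control arrays. Here CA lay above both other groups, with CA minus Control at 0.33 ± 0.0899 (interval 0.13 to 0.53, unadjusted p 0.00423, adjusted p 0.986) and ICC minus CA at -0.16 (interval -0.36 to 0.04). It comes from the same sequence record as 217187_at, yet the correlation between them over the 9 arrays was 0.10, against 0.96 between 214303_x_at and 214385_s_at. Probes of the closely related gel-forming mucins can bind each other's transcripts, so the gene behind a _x_at or _s_at value of these mucins is uncertain. The plot of MUC5AC and MUC20 by array shows the replicate pattern of both genes.

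**Figure D3:**
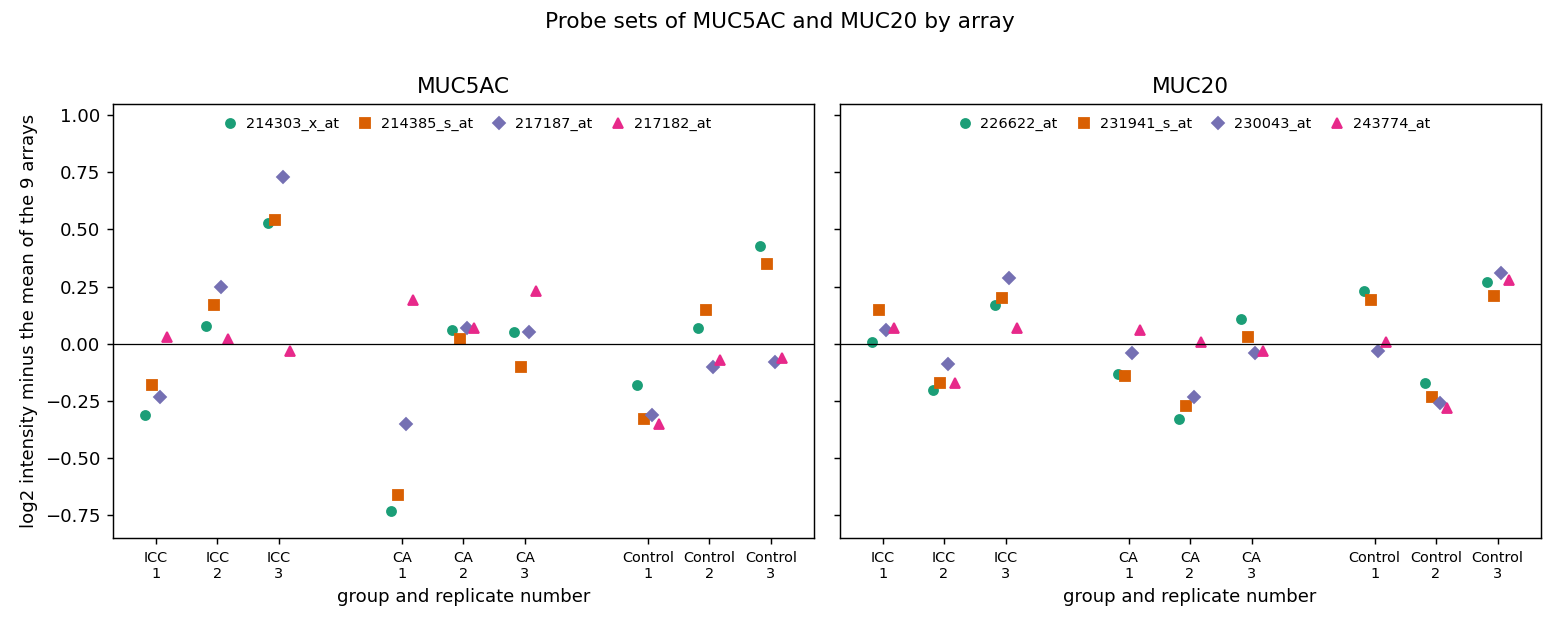
Log2 intensity minus the mean of the 9 arrays for the 4 probe sets each of MUC5AC and MUC20, with ICC, CA and Control arrays 1 to 3 along the axis. In MUC5AC replicate 1 is the lowest array of every group on 3 probe sets, while 217182_at is highest in CA; in MUC20 replicate 2 is the lowest array of every group on 3 probe sets.

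MUC2, the main mucin of colon mucus, had 6.10, 6.0 and 5.86 in ICC, 6.01, 6.0 and 6.14 in CA, and 5.82, 6.0 and 6.13 in Control arrays on its only probe set, 204673_at. The groups overlapped fully, with ICC minus Control at 0.00 (interval -0.21 to 0.22) and CA minus Control at 0.06 (interval -0.15 to 0.28). MUC5B, a gel-forming mucin of airway and salivary glands, had 5.26, 5.17 and 5.12 in ICC, 5.12, 5.08 and 5.19 in CA, and 4.97, 5.08 and 5.02 in Control arrays (213432_at). ICC lay wholly above Control, with a mean difference of 0.16 ± 0.0697 (interval 0.00 to 0.31, unadjusted p 0.0449, adjusted p 0.598). CA also lay above Control, by 0.11, though the lowest CA and highest Control arrays are equal at 2 decimals. Its other probe set, 222268_x_at, gave 4.30, 4.42 and 4.31 in ICC, 3.94, 4.30 and 4.21 in CA, and 4.40, 4.43 and 4.34 in Control arrays. There CA lay wholly below Control, at -0.24 (interval -0.45 to -0.03, adjusted p 0.986; -0.14 without CA replicate 1), so the MUC5B probe sets point opposite ways in CA. MUC6, a mucin of gastric glands, had 5.89, 5.90 and 5.80 in ICC, 5.69, 5.56 and 5.84 in CA, and 5.84 on each of the 3 Control arrays (214133_at). ICC and CA overlapped, with ICC minus CA at 0.17 (interval -0.01 to 0.34). The Control arrays of this probe set hold 1 identical value, and identical values on several arrays occurred in 15 of 28 mucin probe sets (53.6%), against 54.0% of all, so an SD of 0 there is no measure of precision. The second MUC6 probe set, 1565666_s_at, ranged over 3.55 to 3.99.

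How far the replicate number and the group account for the spread can be given as shares of each probe set's total sum of squares. The number took 74.7%, 66.3% and 49.8% for 3 MUC5AC probe sets (214303_x_at, 214385_s_at and 217187_at) and 73.9%, 72.0% and 69.0% for 3 of MUC20. The group took 72.1% and 69.5% for MUC13, 69.4% for MUC5AC 217182_at and 65.1% for MUC5B 213432_at. Over the 28 mucin probe sets the median share was 30.2% by number and 23.2% by group, against 30.0% and 22.2% over all probe sets. The same number was lowest in all 3 groups for 7 of 28 mucin probe sets (25%), against 21.8% of all. These belong to MUC1, MUC20 and MUC5AC, so they are not 7 separate genes. The mucins as a group therefore lay near all probe sets in both shares.

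**Figure D4:**
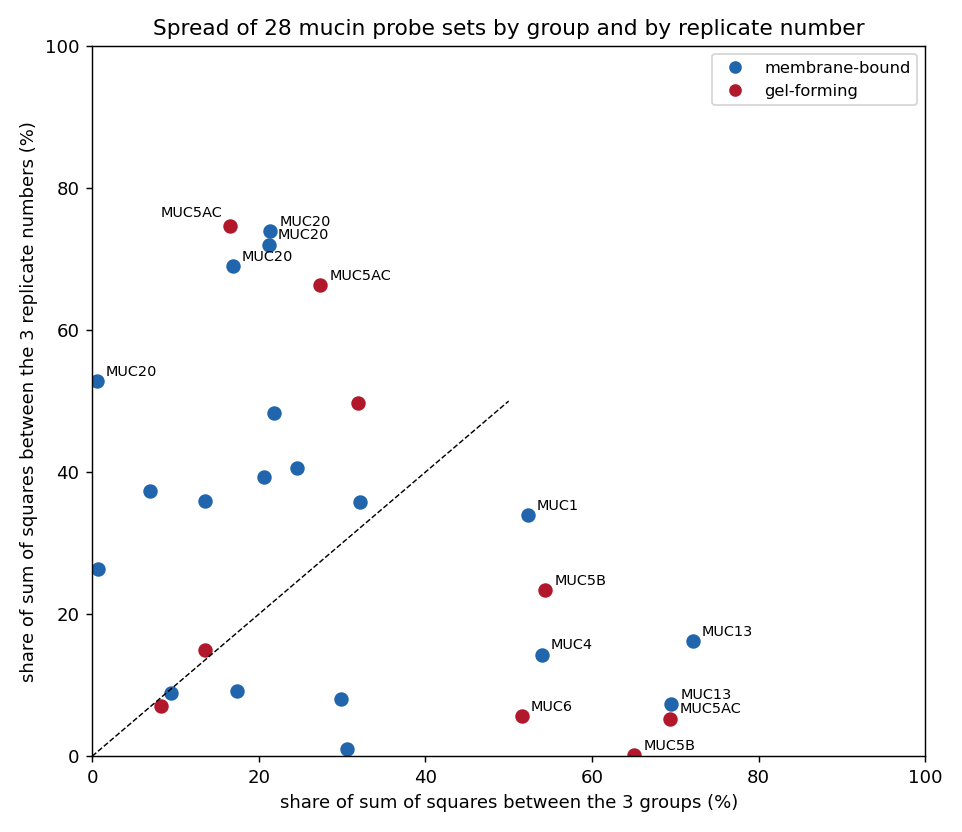
Share of each mucin probe set's sum of squares over the 9 arrays taken by the group (x axis, percent) and by the replicate number (y axis, percent), 1 point per probe set. MUC20 and 3 MUC5AC probe sets lie at the upper left (up to 74.7% by number), and MUC13, MUC5AC 217182_at and MUC5B 213432_at at the lower right.

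Genes that handle mucins were listed with earlier results in view, and 0 of them passed in any comparison, with or without the block. Medians over the list are of leading probe sets, for which all genes had medians of 0.03, 0.00 and 0.02 in ICC minus Control, CA minus Control and ICC minus CA, with 60.2%, 51.4% and 60.6% of genes above 0. Enzymes of mucin O-glycosylation (35 of 36 measured) had medians of -0.02, -0.07 and 0.04, with 15, 9 and 23 of 35 above 0 (26 of 35 below 0 in CA minus Control). B3GNT3, which extends core O-glycans, averaged 8.27 in ICC and 8.01 in Control arrays (0.26 ± 0.0833, adjusted p 0.538), and ST3GAL4, a sialyltransferase, 7.50 in CA and 7.68 in Control arrays (-0.18 ± 0.0726, adjusted p 0.986). ST6GALNAC6, also a sialyltransferase, and SLC35A2, the Golgi UDP-galactose transporter, differed by 0.28 and 0.18 for ICC minus CA (adjusted p 1.00 each).

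Mucus-layer and goblet secretory proteins (16 of 16 measured) had medians of 0.06, -0.10 and 0.13, with 11, 6 and 14 of 16 above 0. AGR3, of the protein disulfide isomerase family, averaged 7.00 in ICC, 6.36 in CA and 7.12 in Control arrays, with CA wholly below both. Its CA minus Control was -0.76 ± 0.189 (adjusted p 0.986, with the block 0.260). FCGBP, a mucus protein that binds MUC2, differed by 0.28 for ICC minus Control (adjusted p 0.569), and TFF3, the intestinal trefoil factor, and BCAS1 by 0.26 and 0.29 for ICC minus CA (adjusted p 1.00 each). Transcription factors of goblet cells and mucin genes (17 of 19 measured) had medians of 0.06, -0.05 and 0.07, with 13, 8 and 16 of 17 above 0. SPDEF, which drives goblet cell maturation, averaged 8.41 in ICC, 8.19 in CA and 8.16 in Control arrays (ICC minus Control 0.25 ± 0.103, adjusted p 0.577). The membrane-tethered factor CREB3L4 and the forkhead factors FOXA2 and FOXA3 had CA minus Control differences of -0.23, -0.22 and -0.07 (adjusted p 0.986, 0.986 and 0.999). FOXA3 differed by 0.26 for ICC minus CA (adjusted p with the block 0.882).

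Genes of the mucin granule and of the ion transport that unfolds mucus (15 of 16 measured) had medians of 0.06, -0.03 and 0.07, with 8, 5 and 13 of 15 above 0. MARCKS, which tethers granules for exocytosis, averaged 10.88 in ICC, 10.83 in CA and 10.56 in Control arrays, and both treatments lay wholly above Control (0.32 and 0.27, adjusted p 0.514 and 0.986). ANO1, a chloride channel, differed by 0.35 ± 0.102 for ICC minus CA (adjusted p 1.00), CFTR, the anion channel that supplies bicarbonate to mucus, by -0.36 ± 0.136 for CA minus Control (adjusted p 0.986), and CA2, a carbonic anhydrase, by -0.33 for CA minus Control (adjusted p 0.986). Sheddases and surface proteases (10 of 10 measured) had medians of 0.00, -0.03 and 0.09, with 5, 3 and 6 of 10 above 0. TMPRSS4, a membrane serine protease, averaged 8.52 in ICC, 8.16 in CA and 8.50 in Control arrays, with CA wholly below both (CA minus Control -0.34 ± 0.0807, adjusted p 0.986). MMP14, ST14 and MEP1B differed by -0.01, 0.15 and 0.11 for ICC minus Control. For CA minus Control MMP14 differed by -0.11, with CA wholly below both other groups (adjusted p 0.986). MEP1B differed by 0.16 for ICC minus CA (adjusted p with the block 0.906).

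Partners of membrane mucins (13 of 13 measured) had medians of 0.06, 0.00 and 0.02, with 7, 6 and 8 of 13 above 0. EZR, the ezrin linker between membrane proteins and actin, averaged 10.18 in ICC and 10.46 in Control arrays (-0.27 ± 0.107, adjusted p 0.573), and MSN, its relative moesin, differed by 0.22 for ICC minus CA (adjusted p 1.00). PDZK1, a scaffold protein, and ERBB3, a receptor of the EGFR family, differed by -0.28 and -0.07 for CA minus Control (adjusted p 0.986 and 0.998). ERBB3 differed by 0.20 for ICC minus CA (adjusted p with the block 0.882). Of the other mucins on the array (12 of 16 measured), the membrane-bound MUC16 and MUC3A each differed by 0.21 for ICC minus Control, with ICC wholly above Control (adjusted p 0.575 and 0.578), and MUCL3 and OVGP1 by 0.20 and 0.17 (adjusted p 0.609 and 0.617). The list medians were 0.06, 0.02 and 0.04, with 8, 7 and 9 of 12 above 0.

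Some genes outside these lists tracked the brightest member of each class across the arrays. Among 12273 genes with a leading probe set above the median, ATP10B, TMED9 and CNPY2 had the highest correlations with MUC20 226622_at, at r = 0.985, 0.969 and 0.967 over 9 arrays. NUS1, ATP9B and ZBED1 had the highest with MUC5AC 214303_x_at, at r = 0.990, 0.985 and 0.963. The arrays share replicate numbers and processing, and these values are a description of 9 arrays chosen from many genes.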

How the data were processed

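Affymetrix HG-U133 Plus 2.0 arrays of 9 HT29 samples were used. The deposited table holds linear intensity values for 54675 probe sets; per the submitters' processing notes the authors used RMA, the design text names GeneSpring GX, and their versions were not given in the sources used here. Log2 was taken here, 62 control probe sets were left out, and 54613 were tested together over all 9 arrays with limma 3.58.1 (R 4.3.3; lmFit and eBayes, group as the only term), with p-values adjusted by Benjamini-Hochberg over all of them and a threshold of 0.05. Of these, 41091 probe sets had 1 gene in the platform annotation, 1801 several and 11721 none.

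The labels number the arrays 1 to 3 in each group. Same-numbered arrays deviated together (correlations of deviations from group means 0.271 to 0.478, against -0.407 to 0.0770 for other numbers), so the numbers pair the samples, although no label says what a number marks; a fit with the number as a block was run beside the first. Members and lists were chosen with earlier results of these data known. Every member is named, with array values for leading probe sets. Of each other list except the cell type markers, at most 4 genes are named, those with the smallest unadjusted p. Cell type markers were named by their signal level and not by p. A few further probe sets were chosen for their values. Alternatives were the block, 1 leading probe set or the mean per gene, other scaling, and only the groups compared. Others were no dim probe sets, no _x_at or _s_at probe sets, 16 added before log2, and each array left out without the block. The fit was run on simulated data with independent noise between arrays and added differences larger than any mucin difference here. That simulation held no shared effect of the replicate number, so it does not cover these small differences or that pairing. Figures used matplotlib 3.10.9.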

Additional observations from a re-analysis of the deposited data

Results flagged for a closer look

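The means of MUC5AC 214385_s_at lay on opposite sides of Control in the treatments. The ICC side turned when 1 array was left out of the fit without the block. In all 3 same-numbered pairs ICC lay above Control, by 0.15, 0.02 and 0.19, and in all 3 CA lay below Control (-0.33, -0.13 and -0.45). ICC minus CA, the test of this difference, was 0.42 with an adjusted p of 1.00, or 0.882 with the replicate block, so it did not pass. Of all 54613 probe sets, 346 (0.634%) showed such opposite pairs, and 1 of the 28 mucin probe sets did. ICC minus Control, 0.12 over all arrays, ran between -0.07 (without Control replicate 1) and 0.30 (without ICC replicate 1), and was -0.06 without ICC replicate 3. CA minus Control, -0.30 over all arrays, ran between -0.50 (without Control replicate 1) and -0.10 (without CA replicate 1). No other MUC5AC probe set showed the pattern: CA minus Control was 0.08 on 217187_at and 0.33 on 217182_at, and ICC minus Control was 0.00 on 214303_x_at, with its first pair at -0.12. All values are log2 differences of the deposited intensities, and the ICC and CA pairs share the same Control arrays.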

How the results depend on the processing

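The number of mucin probe sets called stayed at 0 in each comparison under the replicate block, under every other alternative and without any 1 array. The 28 mucin differences gave 452 alternative values in each comparison, with 0 past the threshold and lowest adjusted p of 0.238 for ICC against Control, 0.475 for CA against Control and 0.882 for ICC against CA. The sign turned in 38, 20 and 16 of them, of which 26, 17 and 15 came from leaving out an array. Over all probe sets the count for ICC against Control was 2 with the replicate block and 0 otherwise, and leaving out an array gave 0 in each comparison.

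Class medians depended on the choice of probe sets, and the cause was not tested. For ICC minus Control the membrane-bound median (0.02) was 0.06 with probe sets averaged by gene and 0.07 without _x_at and _s_at probe sets. It ran between -0.01 (without ICC replicate 1) and 0.08 (without ICC replicate 2). The gel-forming median (0.02) was 0.07 without dim and 0.16 without _x_at and _s_at probe sets. It ran between -0.04 and 0.16 (without Control replicate 1 and 3). For CA minus Control the membrane-bound median (-0.04) was -0.14 with leading probe sets and 0.00 without _x_at and _s_at ones. It ran between -0.09 and -0.01 (without Control replicate 2 and 3). The gel-forming median (0.06) was -0.04 with leading probe sets, with means and without dim probe sets, and 0.03 with 16 added, and ran between -0.02 (without CA replicate 3) and 0.09 (without CA replicate 1). For ICC minus CA the membrane-bound median (0.06) was 0.11 with means. The gel-forming median (0.17) was 0.07 with means and 0.05 without _x_at and _s_at probe sets, and ran between 0.05 and 0.23 (without CA replicate 1 and 3). Other scalings shifted the median difference over all probe sets by at most 0.030 in size (-0.030 for ICC minus CA). The 3 arrays per group limit the precision, and 3 of the 28 mucin probe sets lay below the lower quartile of the arrays.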
